A study of Homo sapiens with 8 samples.

Results

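TWIST1, TWIST2, SNAI1, SNAI2, ZEB1, ZEB2, PRRX1, PRRX2, FOXC1 and FOXC2 encode the transcription factors best known for driving cells towards a mesenchymal state. They were taken by symbol from the gene count tables, where all 10 were found among 57996 symbols. The groups were HAP1 cells of a BCDIN3D knockout, clone 11, and wild-type HAP1 cells, each represented by 2 RNA-seq libraries and 2 small RNA libraries. HAP1 is a near-haploid adherent human line derived from a chronic myelogenous leukaemia, and BCDIN3D is the enzyme that methylates the 5′ phosphate of histidine tRNA. Cells of both groups were grown for 48 h with 10% serum, and within each group 1 library of each assay was dated 6 May and the other 9 May. The label field that names the clone is titled shRNA status, although its value and the series' design text call it a knockout. The knockout was a single clone, so differences between clones and effects of losing BCDIN3D cannot be told apart.

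During the epithelial-to-mesenchymal transition, cells loosen their junctions, lose apical and basal polarity and become motile. SNAI1 and SNAI2 (zinc finger repressors of the Snail family) and ZEB1 and ZEB2 (zinc finger and homeobox repressors) bind E-box sequences in genes for cell junctions. TWIST1 and TWIST2 are basic helix-loop-helix proteins that pair with E proteins such as TCF3, and PRRX1 and PRRX2 are paired-related homeobox proteins of limb and craniofacial mesenchyme. FOXC1 and FOXC2 are forkhead proteins of mesoderm and neural crest derivatives. The repressors are themselves held down in epithelial cells by microRNAs, above all by the miR-200 family, which acts on ZEB1 and ZEB2.

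The RNA-seq libraries held 20065041 to 24415272 counts, and 1 count was worth 0.0405 to 0.0503 CPM (read counts scaled to a common library size). Small RNA depth was 157706 to 346626 counts, where 1 count was worth 2.91 to 5.50 CPM. BCDIN3D transcript was still counted in the knockout libraries, with 33 and 54 counts there and 154 and 121 in wild-type libraries. It stood at 1.56 and 2.71 CPM in knockout and at 7.40 and 4.90 CPM in wild-type libraries, with a log2 fold change of -1.52 ± 0.24 (SE throughout after a log2 fold change; edgeR adjusted p = 2.06e-05). The series' design text calls the replicates biological, but nothing says that they came from separate cultures, so the p-values reflect only how far these libraries varied, which may be technical. Blood markers were mostly near 0, with PTPRC at 1 and 0 counts in knockout and at 0 and 4 in wild-type libraries. TAL1, RUNX1, LYL1 and CORO1A were the 4 of 15 blood markers with enough counts to be tested. TAL1, a blood and endothelial transcription factor, had 1269 and 1188 counts in knockout and 952 and 1232 in wild-type libraries (log2 fold change 0.32 ± 0.08, edgeR adjusted p = 5.64e-03, and adjusted p = 0.237 without wild-type replicate 1). The summed blood markers spanned 77.9 to 80.3 CPM in knockout and 65.0 to 69.4 CPM in wild-type libraries.

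The transition factors split into a large rise, a near-complete loss and a group with small differences. TWIST2 was higher in knockout cells, PRRX1 and PRRX2 were lower, and TWIST1, SNAI1, ZEB1, ZEB2 and FOXC1 missed the threshold. SNAI2 and FOXC2 were too low to test. Of the 10 members 8 passed the filter on low counts, and 1 was called higher and 2 lower at an adjusted p under 0.05. Over all 16233 tested genes 6.56% were called in either direction, 3.06% higher and 3.5% lower. The contrast of TWIST2 with PRRX1 was known when the members were listed, and TWIST2 passed the filter only through the knockout libraries and PRRX1 only through the wild-type ones. The members' count is therefore a description and not evidence about the set.

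**Figure D1:**
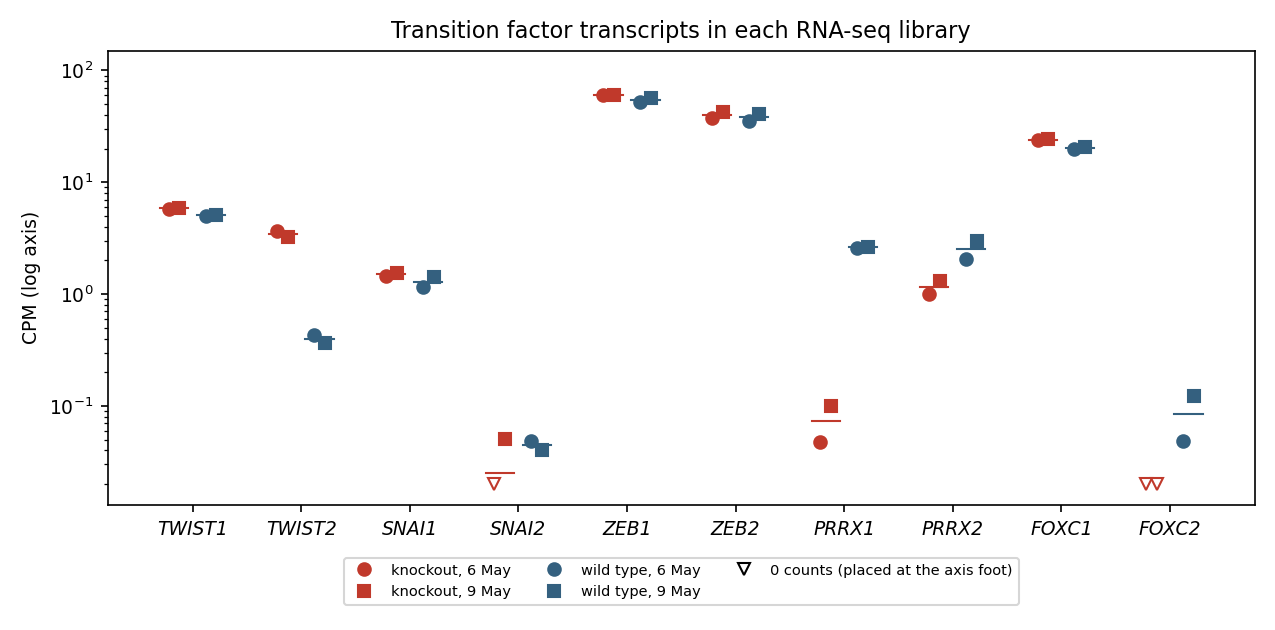
CPM on a log axis for the 10 factors, with knockout libraries to the left of wild-type libraries, circles for 6 May, squares for 9 May and bars for group means. TWIST2 lies at 3.69 and 3.27 CPM in knockout against 0.433 and 0.364 CPM in wild type, PRRX1 shows the opposite order, and open triangles mark libraries with 0 counts.

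TWIST2, which maintains mesenchymal and dermal progenitors and is closely related to TWIST1, had 78 and 65 counts in the knockout libraries and 9 and 9 in the wild-type libraries. In CPM these were 3.69 and 3.27 in knockout and 0.433 and 0.364 in wild type, so that both knockout libraries lay far above both wild-type libraries. The log2 fold change was 3.12 ± 0.35 (edgeR adjusted p = 1.63e-09), an 8.68-fold rise. Without 1 library it ranged from 2.99 to 3.23, a description only, since TWIST2 was listed for this difference. In bulk RNA, fewer or more cells with the transcript and a different amount of RNA per cell cannot be told apart, here or in any result that follows. TWIST2 lies on chromosome 2 (238848085 to 238910534, GRCh38).

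PRRX1, a homeobox factor of limb and facial mesenchyme and of fibroblast states, had 1 and 2 counts in the knockout libraries and 54 and 65 in the wild-type libraries. The levels were 0.0473 and 0.101 CPM in knockout against 2.60 and 2.63 CPM in wild type, with no overlap. Over the groups this was 3 counts against 119, a 35.8-fold lower level (exact 95% interval 11.9 to 176, counting error only; edgeR adjusted p = 3.84e-10). The 3 knockout reads were at the floor of 3 counts used here, and whether they came from PRRX1 transcript was not tested. PRRX1 lies on the long arm of chromosome 1 (170662768 to 170739421).

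The stretches just before the start sites of TWIST2 and PRRX1 are shown because these members moved furthest and in opposite directions. Each is the 250 bases upstream of a RefSeq start (GRCh38.p14, plus strand, 5′ to 3′), with CpG dinucleotides in capitals. The TWIST2 stretch is chr2:238847835-238848084 and the PRRX1 stretch chr1:170663881-170664130. The TWIST2 stretch ends just before the listed gene span, which begins at 238848085. The PRRX1 stretch lies inside the listed gene span (170662768 to 170739421) and so belongs to an internal start. The values below thus compare unlike positions and do not describe the 5′ end of PRRX1.
TWIST2: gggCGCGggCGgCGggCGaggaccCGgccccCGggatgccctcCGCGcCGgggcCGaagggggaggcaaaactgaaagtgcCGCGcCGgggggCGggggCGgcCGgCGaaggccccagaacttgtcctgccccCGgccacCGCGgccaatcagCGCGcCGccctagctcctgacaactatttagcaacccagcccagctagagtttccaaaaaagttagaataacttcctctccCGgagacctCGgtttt
PRRX1: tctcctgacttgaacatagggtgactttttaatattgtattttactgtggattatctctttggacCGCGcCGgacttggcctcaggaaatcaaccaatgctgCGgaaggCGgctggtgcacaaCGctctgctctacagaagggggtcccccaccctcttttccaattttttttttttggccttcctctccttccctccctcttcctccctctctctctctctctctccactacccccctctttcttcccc
TWIST2 carries 26 CpG in this window and a GC content of 68.4%, whereas PRRX1 carries 6 CpG and a GC content of 50.8%. The ratio of observed to expected CpG was 0.889 for TWIST2 and 0.425 for PRRX1, against a median of 0.558 over all 35116 start sites in the table. These are properties of the reference sequence, and methylation was not measured.

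E-boxes, the sites read by Snail, ZEB and TWIST proteins, were searched as CANNTG over 250 bases before to 50 after each start. This motif reads alike on both strands. It was in the windows of ZEB1 and ZEB2 but not in those of TWIST2, PRRX1, PRRX2 and FOXC1, the 6 members with a window in the RefSeq table. Across all windows 68.7% held at least 1 such match. The CACCTG form preferred by Snail and ZEB proteins, counted on both strands and itself a subset of CANNTG, was found for ZEB1 alone of these 6 and in 20.6% of all windows. ZEB1 has several listed starts and so had more sequence to match. The forkhead motif TGTTTAC was also found for ZEB1 alone (3.42% of all windows). It was absent from the 250 bases before the starts alone, so the match reaches into the 50 bases after a start. The homeobox motif TAATTA was found for 0 members (4.84% of all windows). A match is only a run of letters, and a window with no match says nothing of binding elsewhere.

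PRRX2, the close relative of PRRX1 in craniofacial and limb mesenchyme, was lower as well. It had 21 and 26 counts in knockout (0.993 and 1.31 CPM) and 43 and 73 counts in wild-type libraries (2.07 and 2.96 CPM). Knockout libraries lay below both wild-type libraries, and the wild-type libraries also differed from each other. The log2 fold change was -1.14 ± 0.31 (edgeR adjusted p = 0.0128). The call was lost with DESeq2 (adjusted p = 0.225), without knockout replicate 1 (adjusted p = 0.120) and without wild-type replicate 2 (adjusted p = 0.339), with log2 fold changes of -1.14, -0.95 and -0.84. PRRX2 lies on chromosome 9 (129665647 to 129722674).

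TWIST1, the better-known partner of TWIST2 and a regulator of cranial mesenchyme, stood at 5.82 and 5.88 CPM in knockout and at 5.00 and 5.10 CPM in wild-type libraries. Its log2 fold change was 0.21 ± 0.19 (edgeR adjusted p = 0.664). Both knockout libraries lay above both wild-type libraries, and the difference was close to its standard error. TWIST1 lies on chromosome 7 (19113047 to 19117636).

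SNAI1, the zinc finger repressor that acts early in gastrulation, had 31 and 31 counts in knockout and 24 and 35 in wild-type libraries. This gave 1.47 and 1.56 CPM in knockout and 1.15 and 1.42 CPM in wild type, and a log2 fold change of 0.22 ± 0.34 (edgeR adjusted p = 0.831). Its relative SNAI2, a factor of migrating neural crest, had 0 and 1 counts in knockout and 1 and 1 in wild-type libraries. Both groups of SNAI2 were under a floor of 3 counts, so no change was detectable. SNAI1 lies on chromosome 20 (49982980 to 49988886).

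ZEB1 had 1288 and 1195 counts in knockout and 1077 and 1386 in wild-type libraries, and ZEB2 had 795 and 844 in knockout and 739 and 1007 in wild-type libraries. In CPM, ZEB1 stood at 60.9 and 60.1 in knockout and at 51.8 and 56.1 in wild type, with knockout slightly above (log2 fold change 0.16 ± 0.08, edgeR adjusted p = 0.277). ZEB2 stood at 37.6 and 42.4 CPM in knockout and at 35.5 and 40.8 CPM in wild type, and here the groups overlapped (0.07 ± 0.09, edgeR adjusted p = 0.811). Its sign turned without knockout replicate 2 and without wild-type replicate 1 (-0.02 and -0.03). ZEB1 lies on chromosome 10 (31318417 to 31529804) and ZEB2 on chromosome 2 (144384081 to 144520119).

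FOXC1, a forkhead factor of eye, heart and kidney mesenchyme, stood at 23.8 and 24.3 CPM in knockout and at 20.0 and 20.8 CPM in wild-type libraries. Both knockout libraries were above both wild-type libraries, but the log2 fold change of 0.24 ± 0.11 missed the threshold (edgeR adjusted p = 0.223). FOXC2, which is needed for lymphatic vessels and valves, had 0 counts in both knockout libraries and 1 and 3 counts in the wild-type libraries, too few for a test. FOXC1 lies on chromosome 6 (1609915 to 1613897) and FOXC2 on chromosome 16 (86566829 to 86569728).

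Knockout and wild-type libraries did not overlap for 7 of the 8 tested members, 5 with knockout above and 2 with knockout below. The exception was ZEB2. With 2 libraries a group such separation was common, since 45.3% of all tested genes showed it, 23.5% with knockout above and 21.8% with knockout below. The small positive values of TWIST1, SNAI1, ZEB1, ZEB2 and FOXC1, between 0.07 and 0.24, stand beside a median of 0.00 over all tested genes and a median absolute value of 0.12.

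**Figure D2:**
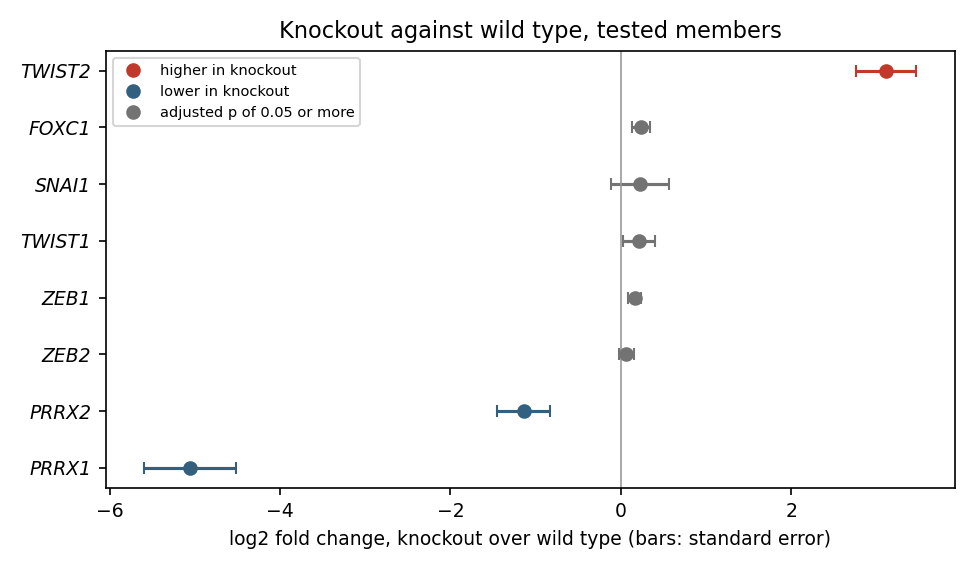
Log2 fold change of knockout over wild type for the 8 tested factors, with bars for the standard error. TWIST2 (3.12) and PRRX1 (-5.05) lie far from 0 on opposite sides, PRRX2 (-1.14) lies below 0, and 5 factors lie between 0.07 and 0.24.

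The nearest tested genes around the called factors had log2 fold changes between -0.46 and 0.18, and 1 of 12 was called. Over all tested genes 6.56% were called, which is also the background for the counts within 1 Mb. Around TWIST2 the nearest tested genes were ASB1 (log2 fold change -0.01 ± 0.08) and TRAF3IP1 (-0.11 ± 0.11) on the side of lower coordinates. On the other side were the histone deacetylase gene HDAC4 (0.18 ± 0.10), 138 kb away, and the respiratory chain gene NDUFA10 (0.05 ± 0.06). None of these 4 passed the threshold. Within 1 Mb of TWIST2, 1 of 11 tested genes was called, RAMP1 (0.37 ± 0.11), a receptor activity modifying protein gene named after its values were seen.

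Around PRRX1 the golgin-binding gene GORAB (-0.08 ± 0.14), 109 kb away, the kinesin-associated gene KIFAP3 (0.07 ± 0.09) and the monooxygenase gene FMO4 (-0.07 ± 0.41) missed the threshold. PRRC2C had 194 ± 5.00 CPM in knockout and 234 ± 31.6 CPM in wild type (SD, n = 2 each) and was lower (-0.27 ± 0.07, edgeR adjusted p = 0.0103), but not without wild-type replicate 2 (-0.12, adjusted p = 0.647). It was the only one of 8 tested genes within 1 Mb to be called, against a log2 fold change of -5.05 for PRRX1. Around PRRX2, ASB6 (0.00 ± 0.09), NTMT1 (0.10 ± 0.08), PTGES (-0.46 ± 0.31) and TOR1B (-0.08 ± 0.11) all missed the threshold. Within 1 Mb, 2 of 35 tested genes were called, ENDOG higher (0.50 ± 0.13) and ASS1 lower (-0.43 ± 0.09), both named after their values were seen.

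**Figure D3:**
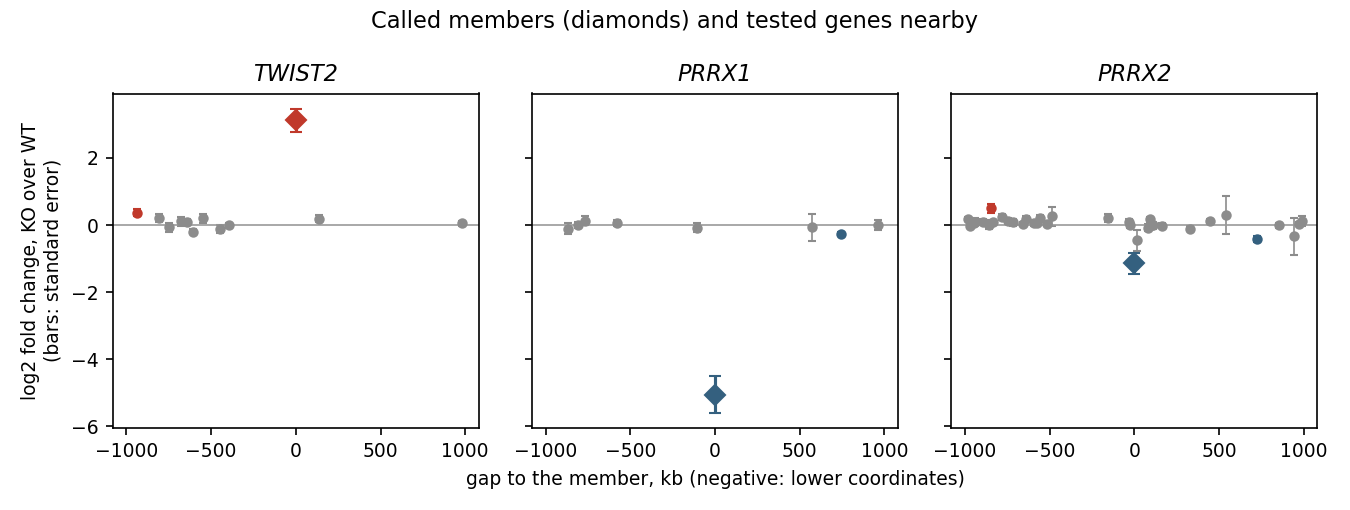
Log2 fold change of knockout over wild type, with standard errors, against the gap in kb to TWIST2, PRRX1 or PRRX2 for tested genes within 1 Mb, with the factor itself as a diamond at 0. Red marks genes called higher, blue genes called lower and grey the others. Neighbours lie near 0 around the displaced TWIST2 and PRRX1.

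Other genes came near the pattern of TWIST2 or PRRX1, and their positions were not compared. By Euclidean distance of log2 CPM over the 4 RNA-seq libraries, the antisense transcript BBOX1-AS1 was nearest to TWIST2 (distance 0.58), followed by NOL4 (1.32) and ATCAY (1.35). BBOX1-AS1 had 2.70 and 2.82 CPM in knockout and 0.336 and 0.405 CPM in wild-type libraries. The metalloprotease gene ADAMTS12 was nearest to PRRX1 (distance 0.26), with 1 and 2 counts in knockout and 48 and 75 in wild-type libraries, a 37.0-fold lower level (95% interval 12.4 to 182). IFI16, a nuclear DNA sensor gene (distance 0.56), was 60.4-fold lower (16.4 to 504), and TCEAL8 (distance 0.80) was 73.5-fold lower (20.0 to 612). These are descriptions from 4 libraries. The genes were chosen for their closeness to TWIST2 or PRRX1, so large differences followed from the choice and the intervals cover counting error only.

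Relatives of the factors moved in both directions. Over all tested genes 3.06% were called higher and 3.5% lower, the background for this and each later gene list. Of 27 listed relatives (Twist-like, Snail-like, paired-related and forkhead genes) 13 were tested, 2 were higher and 1 lower, with a median log2 fold change of 0.03 against 0.00 over all genes. ALX4, a paired-like homeobox gene of craniofacial and limb mesenchyme and thus a relative of PRRX1, stood at 76.3 and 78.9 CPM in knockout and at 21.7 and 25.4 CPM in wild-type libraries (log2 fold change 1.72 ± 0.09, edgeR adjusted p = 2.40e-21). FOXF1, a forkhead gene of visceral mesenchyme beside FOXC2 on chromosome 16, stood at 10.9 and 9.90 CPM in knockout and at 4.57 and 3.36 CPM in wild-type libraries (1.40 ± 0.18, edgeR adjusted p = 4.05e-08). It was the only called gene of 14 tested within 1 Mb of FOXC2. HAND2, a helix-loop-helix gene of heart and limb, was lower with 12 and 15 counts in knockout and 24 and 48 in wild-type libraries (-1.24 ± 0.39, edgeR adjusted p = 0.0446). That call was lost with DESeq2 (adjusted p = 0.421), and also without knockout replicate 1 (0.212), knockout replicate 2 (0.0997) or wild-type replicate 2 (0.628). With the date as a block TCF24 was lower too, which made 2 lower.

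Among 21 other factors tied to the transition, 15 were tested, 1 was higher and 1 lower (median -0.12). ETS1, a factor of endothelium and neural crest, was higher with 19.4 and 17.0 CPM in knockout and 12.8 and 12.7 CPM in wild type (0.51 ± 0.12, edgeR adjusted p = 3.66e-03), a call lost without knockout replicate 1 (adjusted p = 0.0782). PBX3, a homeobox cofactor, was lower with 25.7 and 26.9 CPM in knockout and 34.4 and 37.4 CPM in wild type (-0.45 ± 0.10, edgeR adjusted p = 7.63e-04), a call lost without wild-type replicate 2 (adjusted p = 0.0649). With the date as a block TCF4, TEAD1 and MYB were lower as well, which made 4. Without knockout replicate 1 or without wild-type replicate 1 there were 3 lower, and without wild-type replicate 2 there were 0. Library-size scaling and the fit with no filter each gave 2 lower.

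Factors that hold cells in an epithelial state, several of which oppose SNAI and ZEB proteins, were lower where they were called. Of 20 listed genes 12 were tested, and edgeR called 0 higher and 3 lower. DESeq2 called 0 higher and 2 lower, and at an unadjusted p under 0.05 there were 0 higher and 6 lower. Over all tested genes 3.06% were called higher and 3.5% lower, so 0 higher of 12 is close to the share over all genes. The median log2 fold change was -0.25, also with OVOL2 set to its bound. OVOL2, a zinc finger repressor of ZEB1 in epithelia, had 0 counts in both knockout libraries and 29 and 14 counts in wild-type libraries. It was at least 12.9-fold lower against 3 counts over the group (edgeR adjusted p = 2.00e-05). OVOL2 passed the filter only through the wild-type libraries, as PRRX1 did, so its call is a description. KLF4, a factor of differentiated epithelia, stood at 2.18 and 1.91 CPM in knockout and at 7.45 and 9.92 CPM in wild-type libraries (-2.09 ± 0.21, edgeR adjusted p = 8.66e-11). ESRP1, an epithelial splicing regulator repressed by ZEB1, stood at 3.50 and 2.31 CPM in knockout and at 4.81 and 6.36 CPM in wild-type libraries (-0.94 ± 0.22, edgeR adjusted p = 2.84e-03). The ESRP1 call was lost with DESeq2 (adjusted p = 0.0718), without knockout replicate 2 (0.151) and without wild-type replicate 2 (0.147). With the date as a block FOXA1 and TFAP2C were lower too, which made 5.

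Epithelial genes that these factors are known to repress moved the same way where they were called. Of 40 listed 27 were tested, and edgeR called 0 higher and 6 lower (median -0.20). DESeq2 called 0 higher and 4 lower, and at an unadjusted p under 0.05 there were 0 higher and 10 lower. Over all tested genes 3.06% were called higher and 3.5% lower, so 0 higher of 27 is close to the share over all genes. CDH3, the gene of P-cadherin, stood at 0.993 and 0.704 CPM in knockout and at 5.82 and 6.52 CPM in wild-type libraries (-2.85 ± 0.27, edgeR adjusted p = 7.32e-12). The tight junction gene CLDN1 stood at 1.32 and 0.955 CPM in knockout and at 3.99 and 4.86 CPM in wild-type libraries (-1.95 ± 0.27, edgeR adjusted p = 3.71e-07). Keratin gene KRT8 stood at 7.33 and 8.30 CPM in knockout and at 17.9 and 15.2 CPM in wild-type libraries (-1.08 ± 0.14, edgeR adjusted p = 8.61e-08). In each of these genes both knockout libraries were below both wild-type libraries, as in 21.8% of all tested genes. They were named as the called genes of smallest p, so this separation followed from the choice. CDH1, the gene of E-cadherin and the classical target of SNAI1, had 0 and 1 counts in knockout and 0 and 1 in wild-type libraries and could not be tested. It was thus at the detection limit in both groups.

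Mesenchymal genes were mixed. Of 40 listed 25 were tested, 6 were higher and 2 lower by edgeR (median 0.05). DESeq2 called 4 higher and 1 lower. DDR2, a collagen receptor kinase that stabilises SNAI1 protein, stood at 7.19 and 6.54 CPM in knockout and at 1.97 and 1.58 CPM in wild-type libraries (1.96 ± 0.22, edgeR adjusted p = 2.19e-09). The fibrillin gene FBN1 (0.47 ± 0.08) and the intermediate filament gene VIM (0.28 ± 0.06, with 336 and 311 CPM in knockout and 272 and 262 CPM in wild type) were higher. The VIM call was lost without wild-type replicate 2 (adjusted p = 0.0876), and the number of genes called higher was then 3. CD44, a hyaluronan receptor gene of migrating cells, was lower at 0.189 and 0.352 CPM in knockout against 3.56 and 3.32 CPM in wild-type libraries (-3.65 ± 0.39, edgeR adjusted p = 3.13e-10). POSTN, the gene of the matrix protein periostin, was lower too (-1.37 ± 0.36, edgeR adjusted p = 9.71e-03). That call was lost with DESeq2 (adjusted p = 0.171), without knockout replicate 2 (0.344) and without wild-type replicate 1 (0.0657), which each left CD44 as the only lower gene. CDH2, the gene of N-cadherin, stood at 114 and 114 CPM in knockout and at 117 and 105 CPM in wild type (0.04 ± 0.07, edgeR adjusted p = 0.879). FN1, the fibronectin gene, missed the threshold as well (0.01 ± 0.08, edgeR adjusted p = 0.987). CDH2 and FN1 were named after their values were seen. CD44 and POSTN passed the filter only through the wild-type libraries, as PRRX1 did, so their calls are descriptions.

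**Figure D4:**
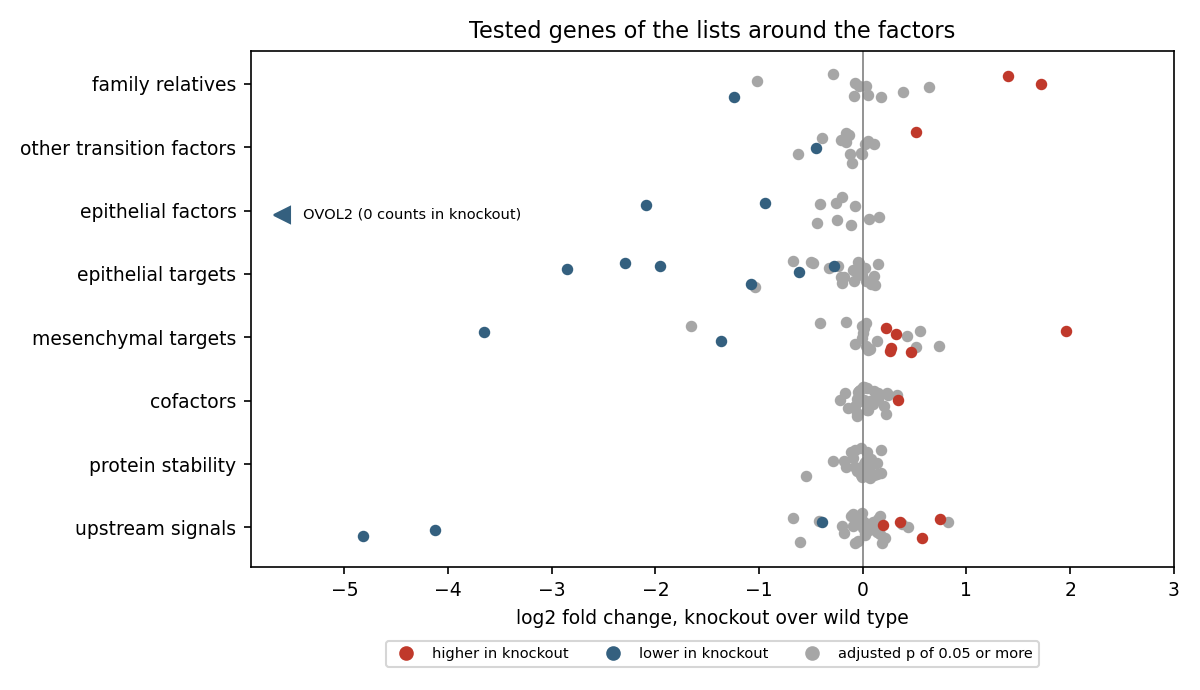
Log2 fold change of knockout over wild type for the tested genes of 8 lists around the transition factors, 1 point per gene, spread vertically for legibility. Called genes of the epithelial lists all lie left of 0, those of the mesenchymal list lie on both sides, and the cofactor and stability lists cluster near 0. OVOL2, with 0 counts in knockout, is drawn as an arrow at the left edge.

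Markers of other cells were read beside these changes. Every epithelial and fibroblast marker called here, and ETS1, also belongs to the lists above, so these calls repeat the same values. The 12 epithelial markers summed to 63.8 and 54.6 CPM in knockout and to 85.4 and 77.8 CPM in wild-type libraries. Of 6 tested 4 were lower, and besides those above they were KRT18 (-0.28 ± 0.09, edgeR adjusted p = 0.0471) and the adhesion gene EPCAM, with 4 and 3 counts in knockout and 18 and 21 in wild-type libraries (-2.29 ± 0.59, edgeR adjusted p = 7.98e-03). The EPCAM call was lost with DESeq2 (adjusted p = 0.187) and without any 1 library (adjusted p from 0.0628 to 0.147), and the number of epithelial markers called was 1 with DESeq2 or without knockout replicate 2 and 2 without either wild-type library. DESeq2 did not call KRT18 (adjusted p = 0.225). EPCAM passed the filter only through the wild-type libraries, so its call is a description. KRT18 made up most of the summed epithelial markers, at 50.7 and 41.6 CPM in knockout and 58.9 and 53.1 CPM in wild type. GRHL2 was at 0 in all 4 libraries, and KRT19, CLDN4, ELF3 and RAB25 had at most 9 counts in a library. The 12 fibroblast markers summed to 78.3 and 88.9 CPM in knockout and to 77.2 and 94.0 CPM in wild-type libraries, ranges that overlap, with DCN and LUM at 0 throughout. PDGFRA made up most of this sum, at 61.8 and 71.5 CPM in knockout and 60.6 and 72.9 CPM in wild type. Only POSTN was called among 5 tested. Of 10 neural crest markers 5 were tested and 2 were higher. FOXD3 stood at 12.6 and 14.5 CPM in knockout and at 5.96 and 6.44 CPM in wild-type libraries (1.13 ± 0.15, edgeR adjusted p = 1.44e-07), and the other was ETS1. The sum was 65.6 and 63.0 CPM in knockout and 48.1 and 50.9 CPM in wild-type libraries, with SOX10 at 0 throughout. The part of a changed mix of cells in the members' values was not tested.

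Among signals that act upstream of the factors, BMP7 and BMP2 were far lower in knockout cells. Of 45 listed upstream genes 41 were tested, 4 were higher and 3 lower (median 0.01). BMP7 and BMP2 passed the filter only through the wild-type libraries, so their calls are descriptions. BMP7, a secreted ligand that opposes transforming growth factor beta in epithelia, stood at 0.426 and 0.704 CPM in knockout and at 15.6 and 16.4 CPM in wild-type libraries (-4.82 ± 0.23, edgeR adjusted p = 3.39e-22). BMP2, a related ligand, stood at 0.284 and 0.251 CPM in knockout and at 3.89 and 5.59 CPM in wild-type libraries (-4.12 ± 0.36, edgeR adjusted p = 1.12e-12). The receptor kinase gene MET was lower (-0.39 ± 0.08, edgeR adjusted p = 1.05e-03), but not without wild-type replicate 2 (adjusted p = 0.141). FGFR2, a fibroblast growth factor receptor gene, was higher (0.36 ± 0.07, edgeR adjusted p = 6.43e-05). TGFB2, a ligand that induces SNAI1 and ZEB1, was higher at 7.43 and 5.93 CPM in knockout against 4.04 and 3.93 CPM in wild-type libraries (0.75 ± 0.19, edgeR adjusted p = 7.65e-03). The Notch target HEY1 was higher as well (0.57 ± 0.16, edgeR adjusted p = 0.0198), and the fourth was FGFR1 (0.19 ± 0.06, edgeR adjusted p = 0.0422, and 0.166 with DESeq2). The calls of TGFB2 and HEY1 were lost with DESeq2 (adjusted p = 0.117 and 0.183), without knockout replicate 1 (0.162 and 0.125) and without wild-type replicate 2 (0.0671 and 0.0850), and that of HEY1 also without wild-type replicate 1 (0.140). The count of upstream genes called higher was 2 without wild-type replicate 1, 2 without wild-type replicate 2 and 1 with DESeq2.

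Among the proteins through which the factors work, ID3 was the only gene called by edgeR. Of 39 listed cofactors (the E protein TCF12, ID proteins, corepressors, SMAD proteins) 36 were tested, 1 was higher and 0 lower (median 0.04), the same counts as with DESeq2, while 7 higher and 1 lower had an unadjusted p under 0.05. ID3, which binds E proteins and keeps them from TWIST proteins, stood at 113 and 116 CPM in knockout and at 101 and 79.5 CPM in wild-type libraries (0.34 ± 0.08, edgeR adjusted p = 8.82e-03). The call was lost without wild-type replicate 2 (adjusted p = 0.448), which left 0 called. With the date as a block the calls also took in ID2, AJUBA, EHMT2 and SUV39H1, which made 5 higher. Without knockout replicate 1 there were 3 higher and 1 lower, without knockout replicate 2 there was 1 lower, and without wild-type replicate 1 there were 3 higher. Of 35 listed genes for the turnover of the factors (kinases, ubiquitin ligases, deubiquitinases) 34 were tested by edgeR and 0 were called in either direction (median 0.00), as with DESeq2. Before adjustment 3 higher and 2 lower genes had a p under 0.05. The smallest p belonged to the deubiquitinase genes USP11 (0.18 ± 0.06, adjusted p = 0.0987) and PSMD14 (-0.16 ± 0.06, adjusted p = 0.143). The blocked fit called 2 higher, USP11 (blocked adjusted p = 0.0271) and TRIM28, and 2 lower, PSMD14 (blocked adjusted p = 0.0293) and HSP90AA1. Without knockout replicate 1 there were 3 higher and 2 lower, among them USP11 (adjusted p = 0.0383) and PSMD14 (adjusted p = 0.0296), and without wild-type replicate 2 there was 1 lower.

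Antisense and host transcripts of the factors were called in 0 of 8 tested cases by edgeR, by DESeq2 and in the blocked fit, and 0 had an unadjusted p under 0.05. ZEB2-AS1 had 2 and 8 counts in knockout and 10 and 13 in wild-type libraries (-1.03 ± 0.64, edgeR adjusted p = 0.456). For TWISTNB, a polymerase I subunit gene named for its place beside TWIST1, the value was -0.14 ± 0.07 (edgeR adjusted p = 0.359). The libraries came from a stranded kit, but the strand setting of the counting is not given in the sources used here, so reads of a gene and of its antisense partner may not be separated. DNM3OS, the host of miR-214 and of 1 of the miR-199a loci, had 0 and 0 counts in knockout and 3 and 3 in wild-type libraries and was not tested.

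MicroRNAs known to act on the factors were read in the small RNA libraries. The members of the miR-200 family fall into groups by seed, bases 2 to 8, shown in capitals in the mature sequences from RefSeq (GRCh38.p14, 5′ to 3′), because the seed decides which sites in ZEB1 and ZEB2 transcripts can pair.
miR-200b-3p: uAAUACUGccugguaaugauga
miR-200c-3p: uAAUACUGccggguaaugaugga
miR-429: uAAUACUGucugguaaaaccgu
miR-200a-3p: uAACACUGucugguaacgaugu
miR-141-3p: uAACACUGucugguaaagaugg
miR-200a-5p: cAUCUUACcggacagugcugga
The first 3 share AAUACUG, the next 2 share AACACUG, and miR-200a-5p, from the other arm of its hairpin, has neither. Of 546 microRNAs tested by edgeR 0.366% were called, and 0 belonged to the 9 families read here. In these families 1 had an unadjusted p under 0.05 and DESeq2 called that 1, miR-30a-5p. On simulated small RNA counts the edgeR test recovered 0% of 14 changes of 2-fold and 0% of 27 changes of 4-fold. A missed threshold in these libraries therefore does not show that a microRNA was unchanged.

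The miR-200 family was scarce apart from 1 library. Of its 9 names 2 had enough counts for a test. miR-200c-3p had 96 and 58 counts in knockout and 54 and 77 in wild-type libraries (528 and 169 CPM against 249 and 332 CPM; log2 fold change 0.25 ± 0.73, edgeR adjusted p = 0.999). Its groups overlapped and its sign turned without knockout replicate 1 (-0.75). miR-200a-5p had 2462 and 41 counts in knockout and 0 and 14 in wild-type libraries, so that knockout replicate 1 alone held nearly all its counts (edgeR adjusted p = 0.999). Without knockout replicate 2 it passed the threshold (edgeR adjusted p = 2.12e-03). In knockout replicate 1 miR-200a-3p, from the same hairpin, had 0 counts, and in the other libraries miR-200a-3p had 10 in knockout and 0 and 13 in wild type. miR-205-5p, which also acts on ZEB1 and ZEB2, had 5 and 0 counts in knockout and 0 and 24 in wild-type libraries.

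**Figure D5:**
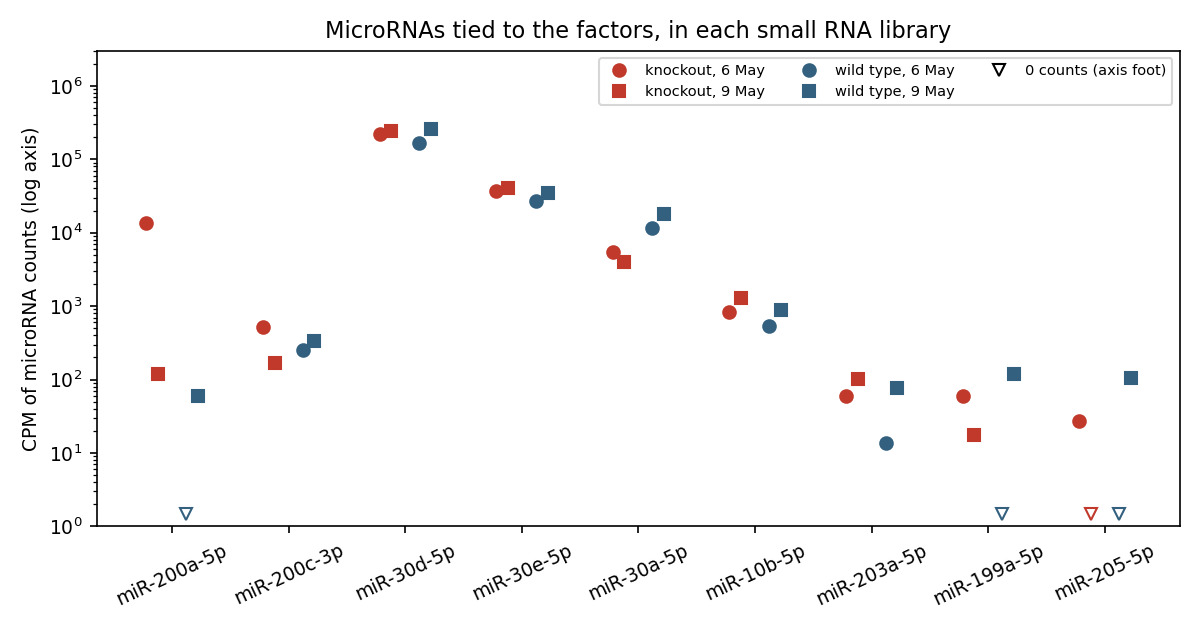
CPM of 9 microRNAs on a log axis, knockout libraries to the left of wild-type libraries, circles for 6 May, squares for 9 May and open triangles for 0 counts. miR-30a-5p lies at 5491 and 4023 CPM in knockout, below 11563 and 17974 CPM in wild type, and miR-200a-5p is high in 1 knockout library alone.

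The miR-30 family, which acts on SNAI1, was abundant. Its members miR-30a-5p and miR-30e-5p share the seed GUAAACA, again in capitals.
miR-30a-5p: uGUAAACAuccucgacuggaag
miR-30e-5p: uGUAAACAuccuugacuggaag
miR-30d-5p stood at 221457 and 238905 CPM in knockout and at 166754 and 257147 CPM in wild-type libraries (0.12 ± 0.26), and miR-30e-5p at 36659 and 40522 CPM in knockout and at 26967 and 35163 CPM in wild-type libraries (0.31 ± 0.25), both with an edgeR adjusted p of 0.999. miR-30a-5p, named after its values were seen, had 4757 ± 1038 CPM in knockout and 14768 ± 4534 CPM in wild type (SD, n = 2 each), with no overlap. Its log2 fold change was -1.63 ± 0.35 and it missed the threshold (edgeR adjusted p = 0.417). It passed with no filter (adjusted p = 5.51e-03), with DESeq2 (adjusted p = 1.31e-04) and with the date as a block (blocked adjusted p = 3.62e-09). The blocked fit had fewer residual degrees of freedom than the main fit, so its small p-value is no firmer ground. Summed over its 11 names, the family took 263788 and 283735 CPM in knockout and 205612 and 310496 CPM in wild-type libraries, ranges that overlap.

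Other families gave few counts. miR-10b-5p, which TWIST1 is known to induce, had 150 and 449 counts in knockout and 116 and 208 in wild-type libraries (825 and 1306 CPM against 536 and 898 CPM; 0.57 ± 0.46, edgeR adjusted p = 0.999). The rows of most counts for SNAI2-directed miR-203 were miR-203a-5p, with 11 and 35 counts in knockout and 3 and 18 in wild-type libraries, and miR-203b-3p, with 11 and 16 in knockout and 0 and 15 in wild-type libraries. miR-199a-5p, whose mature sequence lies both at DNM3OS on chromosome 1 and at a locus on chromosome 19, so that its counts cannot be assigned to either, had 11 and 6 counts in knockout and 0 and 28 in wild-type libraries, and miR-214-5p had 0 and 5 in knockout and 0 and 28 in wild-type libraries. For the ZEB2-directed family miR-215-3p had 21 and 29 counts in knockout and 21 and 18 in wild-type libraries, and miR-192-3p had 10 and 14 in knockout and 0 and 3 in wild-type libraries. miR-34a-5p had 7 and 0 counts in knockout and 0 and 0 in wild-type libraries, and miR-34a-3p had 8 counts in wild-type replicate 2 alone. miR-124-5p had 6 counts in knockout replicate 2 and 0 elsewhere. Libraries of the same group differed widely in these rows, and over all microRNAs the biological coefficient of variation was 109%, against 5.53% in the RNA-seq libraries.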

How the data were processed

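RNA-seq and small RNA libraries of HAP1 cells were read from the deposited raw counts, whole-number read counts per gene symbol (57996) or per mature microRNA name (2656), which the authors had not normalised. Per the submitters' processing notes, STAR, cutadapt, FastQC, SAMtools, Subread and featureCounts were used with hg38. Tool versions, annotation and strand setting were not given in the sources used here. In the microRNA files a row named with an asterisk, with 0 counts, was left out. In R 4.3.3, edgeR 4.0.16 kept rows by filterByExpr (minimum count 10), scaled by TMM and compared the groups by its quasi-likelihood test (robust option), 1 fit per assay, with Benjamini-Hochberg adjustment over all tested rows and a threshold of 0.05. A standard error is the absolute log2 fold change over the root of the F statistic. The CPM shown use the TMM-scaled library sizes, and values in pairs are replicate 1 (6 May) and replicate 2 (9 May). Ratios for groups of 1 to 3 counts have exact 95% conditional intervals, which cover counting error only.

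The dates in the labels pair the libraries, and the differences between the dates correlated weakly between knockout and wild type (r = 0.118 across tested genes, which are not independent replicates). A fit with the date as a block was an alternative, beside DESeq2 1.42.0, other scalings, no filter and leaving out each library. The blocked fit left fewer residual degrees of freedom to estimate variation than the main fit, which had 2. The scripts were tested on simulated data.

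The members, the lists and the alternatives were chosen with earlier results of these data known. The named genes are the members, up to 3 called genes each way of a list or else the 2 of smallest p, the 2 nearest tested genes on each side of a called member, the 3 nearest patterns to TWIST2 and PRRX1, the 2 microRNAs of most counts in a family, and BCDIN3D. SPINT2 was also called in the epithelial list, and SPARC, COL6A1 and COL6A2 in the mesenchymal list, without further description. Positions, promoter windows and mature microRNAs came from RefSeq tables of GRCh38.p14, where 87.6% of tested genes had a position. Replicates differed by more than sampling noise (chi-square per degree of freedom 3.62 to 19.1), so none was counted as a duplicate.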

Additional observations from a re-analysis of the deposited data

How the results depend on the processing

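TWIST2 and PRRX1 were listed for their opposite differences and passed the filter through 1 group each, so their calls under the alternatives are no sign of stability. Their log2 fold changes ranged from 2.99 to 3.23 and from -5.63 to -4.62 without 1 library. The count of members called higher was 1 throughout. The count of members called lower was 2 in the main fit and 1 with DESeq2, where the call of PRRX2 was lost. The PRRX2 call was also lost without knockout replicate 1 and without wild-type replicate 2, as described above. With the date as a block no member changed its call, while over all genes 767 were higher and 784 lower. DESeq2 called 255 higher and 331 lower over all genes, and leaving out 1 library gave 240 to 684 higher and 340 to 705 lower. Scaling by library size alone gave 374 higher and 644 lower, against 497 and 568. Over all microRNAs 0 were higher and 2 lower. There were 2 higher with no filter, 2 higher with DESeq2, and the blocked fit gave 2 and 4, and leaving out 1 library gave 0 to 3 higher and 0 to 3 lower. An unadjusted p under 0.05 was seen for 11. In a fit that leaves a group with 1 library, that library is assumed to vary like the others. TGTTTAC was found for 0 members in the 250 bases before the start alone, against 1.

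Values near 0 changed sign. Leaving out 1 library, ZEB2 ranged from -0.0305 to 0.17, ASB1 from -0.0889 to 0.0627, TRAF3IP1 from -0.28 to 0.0422, GORAB from -0.28 to 0.0902, FMO4 from -0.29 to 0.11, TOR1B from -0.17 to 0.0177 and ASB6 from -0.0571 to 0.0577. ASB6 was also at -0.0053 with RLE scaling, at -0.0050 with DESeq2, at -0.0267 by library size and at -0.00012 with no filter. Among microRNAs, miR-200c-3p ranged from -0.75 to 0.92, miR-215-3p from -0.0624 to 0.46, miR-30d-5p from -0.0575 to 0.36, miR-203b-3p from -0.17 to 6.72 and miR-199a-5p from -1.65 to 6.28 (0.79 with the date as a block). The causes were not tested. The small RNA libraries were both shallower than the RNA-seq libraries and more variable (biological coefficient of variation 109% against 5.53%), and the part of each in the missed calls was not tested.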
